A study of Homo sapiens with 6 samples.

Results

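The BCL2 family decides whether the outer membrane of the mitochondrion is opened during apoptosis. Its members were followed here in U87-EV tumours grown in mice that received either saline or bevacizumab. The members were chosen with earlier results of these data known. All probe sets that the array annotation assigns to a single gene among BCL2, BCL2L1, MCL1, BCL2L11, PMAIP1, BID, BIK, BMF, HRK and BAK1 were taken, whatever their measured values. This gave 34 probe sets for 10 genes, out of 54675 probe sets in all, and 6 of the 10 genes were bright enough to test among 10233 genes.

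Expression was read on 1 human Affymetrix array per tumour sample, with 3 arrays labelled control and 3 labelled bevacizumab. U87 is an established human glioblastoma line, and the meaning of EV is not given in the sources used here. The tumours grew under the skin of female BALB/c SCID mice that were 6 to 8 weeks old when cells were implanted with Matrigel. SCID mice lack mature T and B cells but keep blood vessels, stroma and myeloid cells of their own. The probes are for human transcripts, and how far they read that mouse RNA was not tested. Bevacizumab, an antibody that neutralises human VEGF-A, was given intraperitoneally at 10 mg/kg at intervals of 3 days, starting at a tumour volume of 150 to 200 mm3 and ending at a diameter of about 15 to 30 mm. Controls received saline. Each arm began with 5 mice. Nothing in the labels ties an array to a mouse, and the spread behind each p-value is that among these arrays and could be technical.

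Survival members (BCL2, BCL2L1, MCL1) hold the pore-forming effectors, such as BAK1, in check at the mitochondrion. BH3-only members (BCL2L11, PMAIP1, BID, BIK, BMF, HRK) carry a short helix that occupies the groove of survival proteins or engages effectors directly, and stress signals act largely by raising or activating them. Much of this control is exerted on the proteins, through cleavage, phosphorylation and degradation, which arrays do not read. MCL1 and PMAIP1 in particular make proteins that are destroyed quickly.

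Array medians lay between 2.49 and 2.51 on the log2 scale of the deposited GCRMA values, and profiles correlated at 0.986 to 0.997 across all pairs of arrays. The line's mesenchymal markers VIM, CD44 and TNC were bright, with group means from 13.51 to 15.17, whereas the astrocyte filament gene GFAP was under 4 on every array. The nestin gene NES, also on that list, fell by 1.18 (limma adjusted p = 0.00725). All 5 neutrophil and all 4 lymphocyte markers measured, and 3 of 4 macrophage markers (PTPRC, CD14, CSF1R), were under 4 on every array. Of 5 mural cell markers 2 fell after bevacizumab, against 9.97% of all tested genes called lower at an adjusted p under 0.05. The differences were -2.85 for RGS5 and -1.79 for ACTA2 (limma adjusted p = 0.0022 and 0.00407). The other 3 did not pass, with differences of 0.30 for PDGFRB, 0.16 for CSPG4 and -0.51 for NOTCH3, so the lower sum rested mainly on RGS5 and ACTA2. The summed level of that list was 47.4 to 47.7 on control arrays against 41.9 to 43.9 on treated ones. Whether these readings came from mouse mural cells or from the tumour cells was not tested, nor was any part of mural cells in the family values. Of 5 endothelial markers CDH5, KDR and VWF were under 4 on every array and none passed the test. Low values on human probes do not show that mouse immune or endothelial cells were few. In bulk tumours fewer cells of a type and less RNA per cell cannot be told apart.

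None of the 6 testable family members passed the threshold of an adjusted p under 0.05 (limma with Benjamini-Hochberg adjustment over 10233 genes), higher or lower. The same fit called 19.1% of all tested genes, 9.09% higher and 9.97% lower. At an unadjusted p under 0.05 there was 1 member, BID, against 35.8% of all tested genes. Groups did not overlap in 2 of 6 members, BID above the controls and BCL2L11 narrowly below them, against 41.0% of all tested genes in either direction and 19.0% above. The median absolute difference was 0.26 on the log2 scale over the 6 members and also 0.26 over all tested genes, and their median standard error was 0.15 against 0.14. Signed differences were split evenly, with 3 members above 0 and 3 below, and a median of 0.06 against -0.01 over all tested genes. The count over all genes itself moved with single arrays: it was 578, 558 and 897 without control 1, 2 or 3 and 1075 without bevacizumab 2, against 1950.

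**Figure D1:**
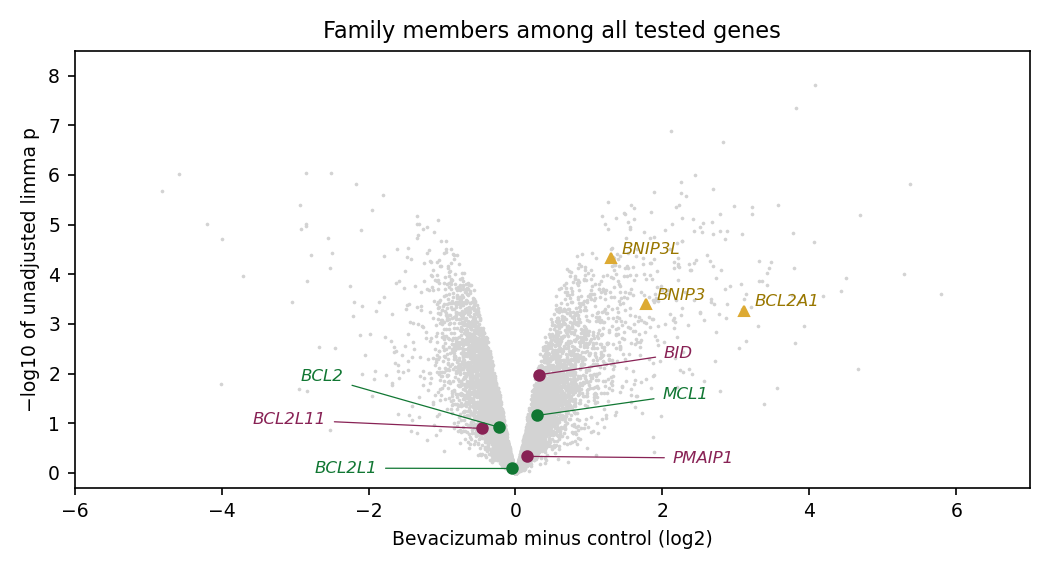
Each grey point is 1 of 10233 tested genes, with the difference of group means (log2) on the horizontal axis and −log10 of the unadjusted limma p on the vertical axis. Survival members are green circles, BH3-only members purple circles, and gold triangles mark BNIP3, BNIP3L and BCL2A1, related genes that passed the threshold. The 6 members lie between -0.46 and 0.32, and BID is the highest of them, just short of the threshold.

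**Figure D2:**
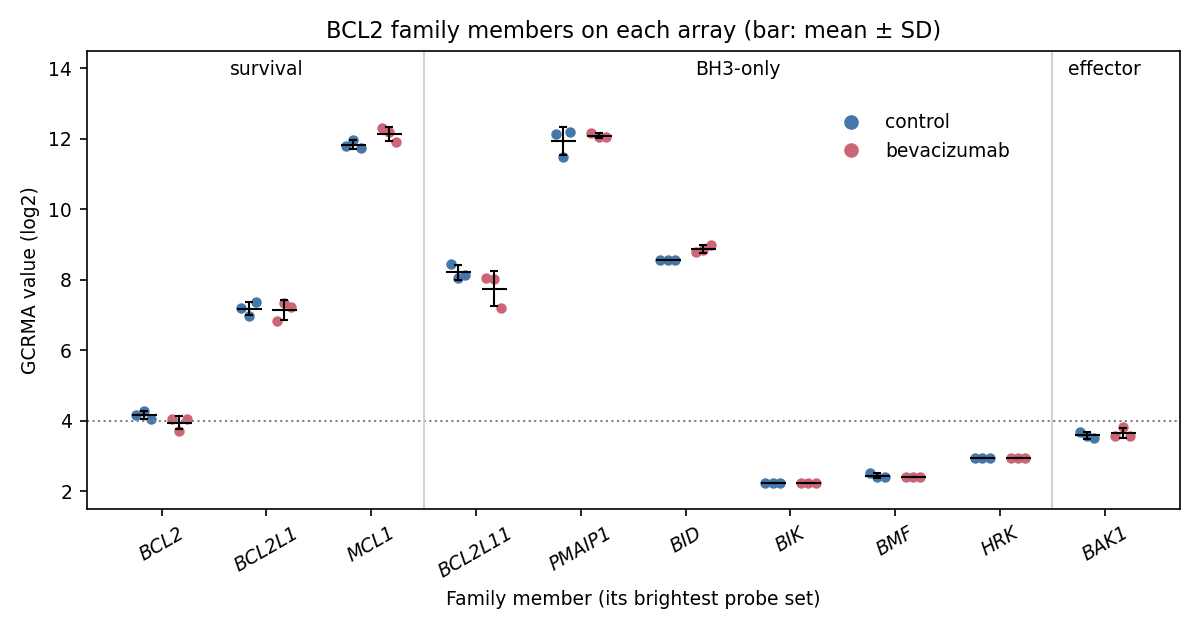
GCRMA values (log2) of the 10 members on their brightest probe set, with a point per array in blue for control and red for bevacizumab, and bars for the mean ± SD of 3 arrays. The dotted line at 4 is the minimum mean for a test, which BCL2 narrowly reached and BIK, BMF, HRK and BAK1 did not. The levels of different genes are not comparable, because each probe set has its own response.

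Among survival members, MCL1 had the widest difference on the probe set that stood for the gene, without passing. MCL1 (Entrez gene 4170), which binds BAK1 and several BH3-only proteins, read 11.81, 11.98 and 11.73 on control arrays 1 to 3 of probe set 200797_s_at, and 12.32, 12.19 and 11.91 after bevacizumab. Bevacizumab 3 lay below control 2, so the groups overlapped. The difference was 0.30 (SE 0.14, limma adjusted p = 0.172), with a 95% interval from -0.03 to 0.63, that is, from 0.978-fold to 1.54-fold.

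Other MCL1 probe sets did not follow the brightest one. Probe set 200796_s_at read 7.95, 8.09 and 7.90 in controls and 7.68, 7.32 and 7.48 after bevacizumab, so all 3 treated arrays lay below all 3 controls. This was a decrease of 0.49 (limma adjusted p = 0.0492 over 18475 probe sets, difference -0.49, SE 0.12), lower on 3 of 3 treated arrays. It was the sole family probe set of 18 tested to pass, or 5.56%, against 15.4% of all probe sets tested; at an unadjusted p under 0.05 there were 4, or 22.2%, against 33.4%. On leaving out single arrays the call ended in 5 of 6 cases (each control, bevacizumab 2 and bevacizumab 3), with adjusted p from 0.0964 to 0.137, and held without bevacizumab 1 (adjusted p = 0.0347). Probe set 200798_x_at, whose suffix marks probes that can cross-hybridise, differed by -0.08 (95% interval -0.45 to 0.30). Probe set 214056_at read 6.08, 6.77 and 6.73 in controls and 7.02, 5.08 and 5.53 after bevacizumab, with 1 treated array above every control and the others below. Its difference was -0.65 and became -1.22 (adjusted p = 0.0498) without bevacizumab 1 and -0.25 (adjusted p = 0.774) without bevacizumab 2. Probe set 214057_at overlapped throughout, and 227175_at gave the table's lowest value, 2.23, throughout. No direction is therefore given for MCL1: its brightest probe set and the mean of all its probe sets (-0.16) differ in sign.

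BCL2L1, which encodes BCL-XL and is spliced into a long survival form and a short form that promotes death, showed the smallest difference of the family. BCL2L1 (Entrez gene 598) read 7.20, 6.99 and 7.36 in controls and 6.83, 7.35 and 7.24 after bevacizumab on 206665_s_at. Treated and control arrays were interleaved. The difference was -0.04 (SE 0.17, limma adjusted p = 0.882; 95% interval -0.46 to 0.37), and 89.9% of tested genes had a larger absolute difference. Its other bright probe sets, 215037_s_at and 212312_at, differed by -0.20 and -0.14 and overlapped between groups. The array values do not distinguish the splice forms here, since the positions of the probes were not used.

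BCL2, the founding survival member, was near the lower limit of measurement. BCL2 (Entrez gene 596) read 4.17, 4.28 and 4.05 in controls and 4.05, 3.72 and 4.05 after bevacizumab on 207004_at, its brightest probe set. The groups touched at 4.05, and the difference of -0.23 did not pass (SE 0.13, limma adjusted p = 0.246; 95% interval -0.53 to 0.08). Without bevacizumab 2 it was -0.12 and with values under 4 set to 4 it was -0.13. Its mean over the 6 arrays was 4.05, just above the minimum of 4, whereas BAK1 with a mean of 3.62 was just below it. The other 3 BCL2 probe sets lay between 2.23 and 3.37 on every array, where a change in a weakly expressed transcript would not be visible.

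Among death-promoting members, BID came closest to the threshold. BID (Entrez gene 637) encodes the protein that caspase 8 cleaves to carry a death receptor signal to mitochondria. On 211725_s_at it read 8.56, 8.56 and 8.55 in controls and 8.78, 8.86 and 8.99 after bevacizumab, so every treated array lay above every control. The difference was 0.32 (SE 0.09, limma unadjusted p = 0.0106, adjusted p = 0.0534; 95% interval 0.10 to 0.53), or 1.25-fold, and higher on 3 of 3 treated arrays. The very small SD of the controls, 0.003, was shared by none of the other BID probe sets. On 204493_at controls read 7.88, 8.10 and 8.32 against 8.33, 8.49 and 8.37 after bevacizumab. On 227143_s_at controls read 7.57, 7.84 and 8.16 against 8.46, 8.30 and 8.23. All 3 BID probe sets were therefore higher without overlap, by 0.32, 0.30 and 0.47, although none passed among probe sets (limma adjusted p = 0.0654, 0.181 and 0.114 over 18475 probe sets). They report 1 transcript pool and are not independent replicates. Leaving out bevacizumab 1 brought BID past the threshold (adjusted p = 0.0467, difference 0.37); over all alternatives the adjusted p ran from 0.0467 to 0.165, and the difference stayed above 0. With the ACTB 3' minus 5' difference as a covariate, a measure described further on, the BID probe sets differed by 0.40, 0.03 and 0.03.

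BCL2L11, known as BIM, is a strong activator of the effectors and binds all survival members. BCL2L11 (Entrez gene 10018) read 8.46, 8.04 and 8.13 in controls and 8.04, 8.03 and 7.19 after bevacizumab on 225606_at. The low value came from bevacizumab 3, while bevacizumab 1 and bevacizumab 2 lay just below control 2. The difference was -0.46 (SE 0.26, limma adjusted p = 0.255; 95% interval -1.09 to 0.17), and it shrank to -0.18 (adjusted p = 0.448) without bevacizumab 3. Bevacizumab 3 was also the lowest array on 1558143_a_at, at 5.96 against 6.74 to 7.51 elsewhere, and on 1555372_at, at 2.66 against 4.68 to 5.91. On 1553096_s_at it was the highest, at 5.17 against 4.73 to 4.94. BIM transcripts are spliced into many forms, and these probe sets differed in direction on that array. The remaining 3 probe sets stayed between 2.23 and 3.36.

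PMAIP1, known as NOXA, binds MCL1 and promotes its degradation. PMAIP1 (Entrez gene 5366) read 12.13, 11.48 and 12.19 in controls and 12.17, 12.04 and 12.05 after bevacizumab on 204285_s_at. Control 2 was low and the treated arrays were close together, with SDs of 0.39 and 0.07. The difference was 0.15 (SE 0.20, limma adjusted p = 0.604; 95% interval -0.33 to 0.64), and without control 2 it was -0.07. On its other probe set, 204286_s_at, controls read 11.41, 11.20 and 11.57 and treated arrays 11.09, 10.70 and 11.12, all below the controls. That difference was -0.43 and did not pass either (limma adjusted p = 0.124 over 18475 probe sets). As for MCL1, the sign depended on the probe set.

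The other 4 death members could not be compared. BIK had 1 probe set, which gave 2.23, the table's minimum, on all 6 arrays. BMF, which is tethered to the cytoskeleton until cells detach, ran from 2.40 to 2.53. HRK, a BH3-only gene best known from neurons, lay between 2.23 and 2.95 on 5 probe sets. BAK1, the effector that forms pores, read 3.68, 3.57 and 3.50 in controls and 3.57, 3.83 and 3.57 after bevacizumab on its 1 probe set. These values do not show that the genes were silent, since a probe set can fail to report its transcript.

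**Figure D3:**
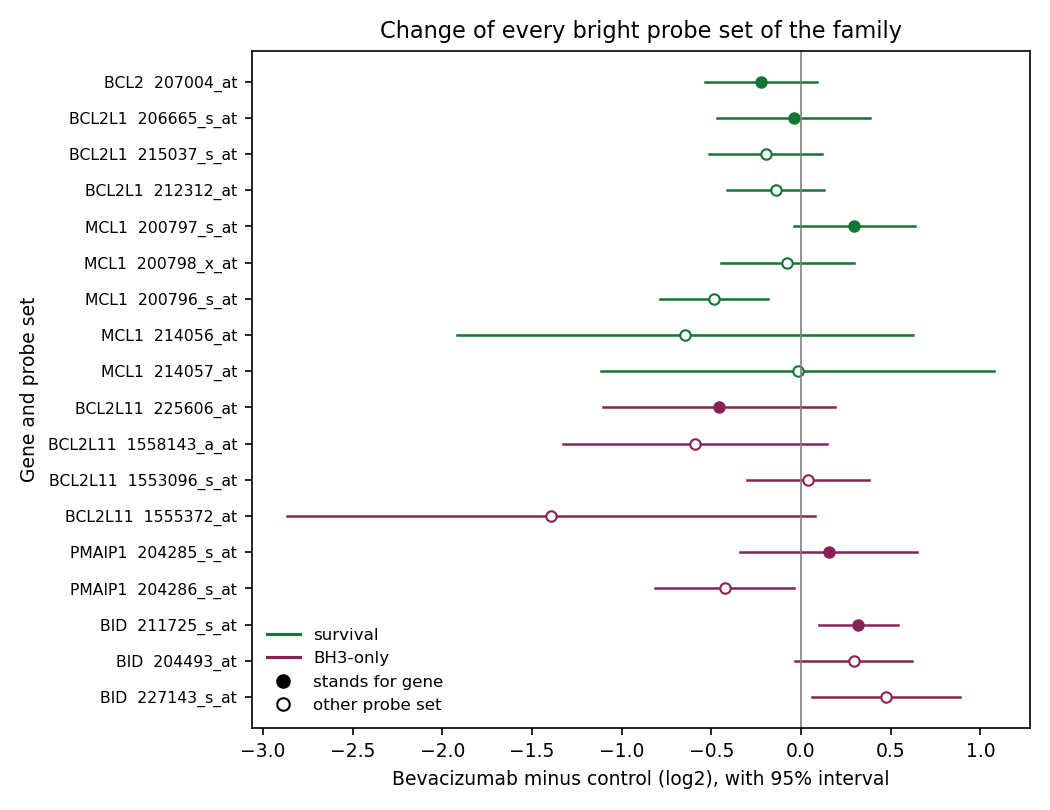
Difference between group means (bevacizumab minus control, log2) with its 95% interval for the 18 bright probe sets, in green for survival and purple for BH3-only members. Filled circles mark the probe set that stands for the gene. The intervals of 4 probe sets exclude 0 before adjustment: 200796_s_at of MCL1 and 204286_s_at of PMAIP1 below it, 211725_s_at and 227143_s_at of BID above it.

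Over the 18 bright probe sets, groups did not overlap in 7, or 38.9%, against 39.0% of all probe sets tested. Of these 7, the 3 above the controls all belonged to BID. The 4 below belonged to BCL2L11 (2 probe sets), MCL1 and PMAIP1. The family's share of separated probe sets was thus at the background of the whole array.

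Survival and death members were also averaged by role. Each gene's values were centred on its control mean and averaged over the 3 survival and the 3 death members tested. The survival average was 0.00, 0.02 and -0.02 in controls and 0.00, 0.03 and 0.00 after bevacizumab. The death average was 0.15, -0.20 and 0.06 in controls and 0.10, 0.08 and -0.16 after bevacizumab. The treated arrays lay inside the range of the controls for the death average, and differed from the controls by at most a few hundredths for the survival average. Death minus survival averaged 0.00 (SD 0.20, n = 3) in controls and -0.005 (SD 0.13, n = 3) after bevacizumab. The control means are 0 by construction, and the death average combines members of opposite sign (-0.46 for BCL2L11, 0.15 for PMAIP1 and 0.32 for BID). So does the survival average (0.30 for MCL1 on its brightest probe set, -0.23 for BCL2 and -0.04 for BCL2L1). A value near 0 therefore does not show that the members stayed level, and these averages carry no test.

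Individual partners were also set against each other within each array. Only the change in such a difference has a meaning, because probe sets respond unequally. Of all 9 combinations of a tested BH3-only with a tested survival member on their brightest probe sets, 2 separated the groups, in opposite directions. No share over other gene combinations was computed, so the count of 2 cannot be set against a background. Of single tested genes, 41.0% separated the groups. BCL2L11 minus MCL1 was -3.35, -3.94 and -3.60 in controls and -4.28, -4.16 and -4.72 after bevacizumab, a shift of -0.75 with no overlap. It combines a lower BCL2L11 reading and a higher MCL1 reading, neither of which passed, and it rests on 1 of the MCL1 probe sets that differ in direction. BID minus BCL2 was 4.38, 4.28 and 4.51 in controls and 4.73, 5.13 and 4.94 after bevacizumab, a shift of 0.54 with no overlap, and BCL2 lay at the lower limit of measurement. The other 7 combinations overlapped, with shifts from -0.42 for BCL2L11 minus BCL2L1 to 0.38 for PMAIP1 minus BCL2.

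The disagreement between probe sets of 1 gene was measured directly, a comparison chosen after these values were seen. The difference between probe sets 200797_s_at and 200796_s_at of MCL1 was 3.86, 3.90 and 3.83 in controls and 4.63, 4.87 and 4.43 after bevacizumab. It widened by 0.78 (SE 0.15; two-sided exact permutation p = 0.1, the smallest that 3 arrays against 3 can give), on 3 of 3 treated arrays. The difference between both PMAIP1 probe sets was 0.72, 0.28 and 0.62 in controls and 1.08, 1.34 and 0.94 after bevacizumab, wider by 0.58 (exact permutation p = 0.1). When all 13691 such pairs on the array were fitted together with limma, 0.139% of pairs passed and none of the 23 family pairs did, with adjusted p = 0.0722 for the MCL1 pair and 0.136 for the PMAIP1 pair. Groups did not overlap in 6 of the 23 family pairs, or 26.1%, against 28.4% of all pairs, so the family's share was near the background. These 6 belonged to MCL1 (3 pairs), BCL2L11 (2 pairs) and PMAIP1. By size the family pairs differed more, with a median absolute change of 0.41 against 0.24 over all pairs. The 23 pairs came from 5 genes and share probe sets. Over the same arrays the 3' minus 5' difference of the ACTB control probe sets, a sign of RNA integrity, was 1.14, 1.33 and 1.66 in controls and 1.94, 1.86 and 1.64 after bevacizumab. That of GAPDH was between -0.14 and -0.11 in controls and between -0.06 and 0.01 after bevacizumab. The part of RNA integrity in the probe-set differences was not tested beyond a fit with the ACTB difference as a covariate, in which no family member or pair passed and 24 genes passed in all. The ACTB difference averaged 1.38 in controls and 1.81 after bevacizumab, so on 6 arrays that fit cannot fully tell it apart from treatment.

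**Figure D4:**
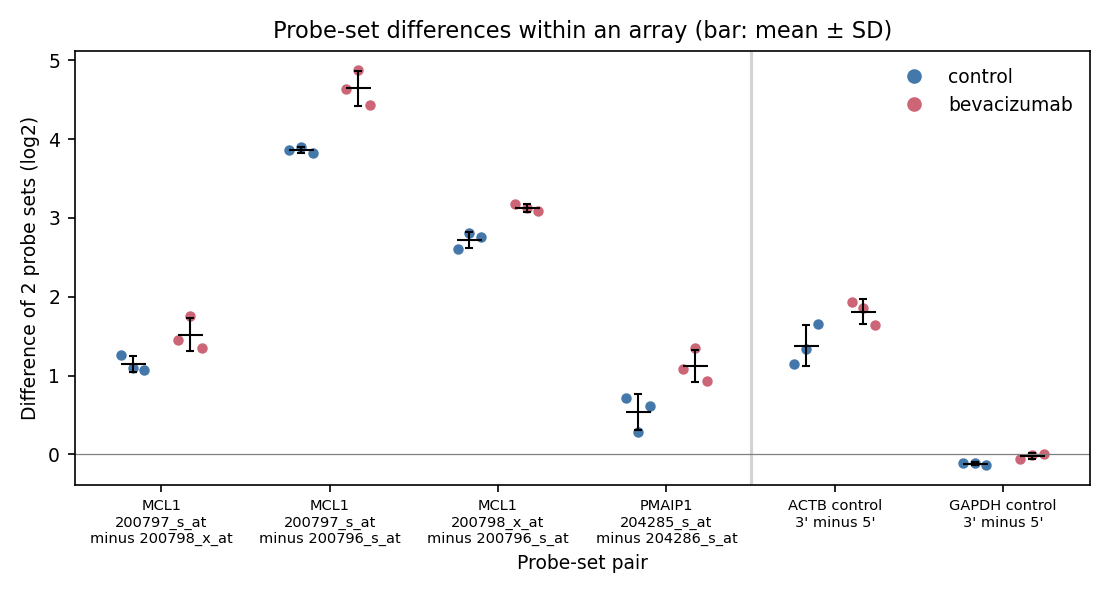
Within-array differences between probe sets (log2), a point per array in blue for control and red for bevacizumab, with bars for the mean ± SD of 3 arrays. The left side shows the 3 brightest MCL1 probe sets against each other and both PMAIP1 probe sets. The right side gives the ACTB and GAPDH controls, 3' minus 5'. The MCL1 and PMAIP1 differences shown and the GAPDH difference do not overlap between groups, the ACTB difference does.

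Promoters of the family were read for motifs of hypoxia, FOXO and STAT factors, and the windows of BID and BCL2L11 are shown because they hold a match. RefSeq windows of 250 bases before the transcript start (GRCh38.p14) were available for 8 of the 10 members, in 14 windows, since a gene can have several starts. MCL1 and BIK had no window and were not searched. Searched on both strands were ACGTG, the core bound by hypoxia-inducible factors, GTAAACA, bound by FOXO factors, and TTCNNNGAA, bound by STAT factors. ACGTG was present in 18.5% of all 35116 windows, GTAAACA in 2.98% and TTCNNNGAA in 6.57%, and windows of neighbouring starts overlap. In the family windows searched, ACGTG was found in 2 overlapping windows of BID, GTAAACA in the window of BCL2L11, and TTCNNNGAA in none. The sequences show where these letters lie, in capitals; in BID the motif and its reverse complement CACGT overlap. A match describes letters and is no evidence that a factor binds.
BID, chr22:17774043-17774292, minus strand: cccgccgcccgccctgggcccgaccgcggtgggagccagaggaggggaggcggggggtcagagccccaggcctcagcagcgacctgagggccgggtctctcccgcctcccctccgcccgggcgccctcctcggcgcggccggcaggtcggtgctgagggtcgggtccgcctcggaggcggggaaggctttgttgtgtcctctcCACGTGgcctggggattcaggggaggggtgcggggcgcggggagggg
BCL2L11, chr2:111120664-111120913, plus strand: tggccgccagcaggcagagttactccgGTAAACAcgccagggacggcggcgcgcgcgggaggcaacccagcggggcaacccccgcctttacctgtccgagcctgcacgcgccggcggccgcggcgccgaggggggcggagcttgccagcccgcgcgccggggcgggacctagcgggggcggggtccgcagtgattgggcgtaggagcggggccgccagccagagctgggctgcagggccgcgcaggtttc

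Of transcription factors known to act on family genes, 8 were tested. Of these, 4 rose and none fell, against 9.09% called higher and 9.97% called lower over all tested genes. The median difference was 0.53 against -0.01 over all tested genes. The list was chosen with earlier results of these data known, and the part of that choice in these values was not tested. DDIT3, the stress factor CHOP that can induce BCL2L11, read 8.23, 9.07 and 8.57 in controls and 10.06, 9.82 and 10.23 after bevacizumab. All treated arrays were above all controls, and the rise was 1.41 (SE 0.23, limma adjusted p = 0.013). STAT3, an activator of MCL1 and BCL2L1 transcription, rose by 0.86 (adjusted p = 0.00609). ATF4, which can induce PMAIP1, rose by 0.59 (adjusted p = 0.0148), and FOXO3, which can induce BCL2L11, by 0.47 (adjusted p = 0.0446). STAT3 kept its call whichever array was left out. DDIT3 was lost without control 3 (adjusted p = 0.0517), ATF4 without control 1 (0.0629) or control 3 (0.0539), and FOXO3 in each such case but bevacizumab 3, with adjusted p up to 0.131.

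Of 8 other BCL2 proteins tested, 3 rose and none fell, against 9.09% called higher and 9.97% called lower over all tested genes. This list, too, was chosen with earlier results of these data known. BCL2A1, a survival protein induced by NF-kB, was under 4 in all controls, at 3.39, 3.27 and 3.58, and read 6.74, 5.43 and 7.39 after bevacizumab. With 4 taken as the control level, the treated mean of 6.52 was 5.75-fold higher. That figure is an estimate from group means and not a lower limit. The call came from the values as deposited (limma adjusted p = 0.0109). The control mean of 3.41 was below the minimum of 4, so BCL2A1 was tested only because its treated arrays were bright. The call was lost without control 1 (adjusted p = 0.0542) or control 2 (0.0536). BNIP3 and BNIP3L, mitophagy receptors induced by low oxygen that resemble BH3-only proteins, rose by 1.77 and 1.30 (adjusted p = 0.00943 and 0.00424). Both kept their calls whichever array was left out. The effector gene BAX differed by -0.55 (adjusted p = 0.122), the survival gene BCL2L2 by 0.43 (adjusted p = 0.134) and the BH3-only gene BAD by 0.10 (adjusted p = 0.466). Those 3 were chosen for naming because they are core members of the wider family, after their values were seen.

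None of 6 tested genes of the apoptosome and caspases passed, with 2 at an unadjusted p under 0.05, against 19.1% and 35.8% of all tested genes. Among inhibitors of apoptosis and their antagonists, 1 of 8 fell, BIRC5, which encodes survivin and is also a mitotic protein, with 10.74 ± 0.08 in controls and 10.15 ± 0.20 after bevacizumab (SD, n = 3; limma adjusted p = 0.0248). That call ended on leaving out each control or bevacizumab 2, with adjusted p up to 0.0906. Among outer membrane partners 2 of 6 fell. Over all tested genes 9.97% were called lower, and counts this small are not set apart from that share. MTCH2, a receptor for cleaved BID, was at 11.70, 11.73 and 11.65 in controls and 11.26, 11.16 and 11.21 after bevacizumab, lower on every treated array by 0.48 on average (difference -0.48, adjusted p = 0.0132). VDAC3, a channel protein, fell by 0.47 (adjusted p = 0.0477). MTCH2 lost its call without control 1 (0.0575) or control 2 (0.0577), and VDAC3 on leaving out any array but bevacizumab 1, with adjusted p up to 0.139.

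Among death receptors and adaptors 1 of 8 tested genes rose and 1 fell, near the 9.09% and 9.97% over all tested genes. At an unadjusted p under 0.05 there were 5 of 8, against 35.8% of all tested genes. Groups did not overlap in 5 of 8, or 62.5%, against 41.0%. The widest difference of the list, 1.61 for TNFSF10, did not pass (limma adjusted p = 0.0688). TRADD, an adaptor of the TNF receptor, rose by 0.50 (limma adjusted p = 0.0326), and the receptor gene FAS fell by 0.52 (adjusted p = 0.0318). With single arrays left out, TRADD passed without control 3 or bevacizumab 1, and FAS without bevacizumab 1; the adjusted p reached 0.107 and 0.103. None of 10 tested regulators of family protein stability and location passed, among them the MCL1 ubiquitin ligase genes HUWE1, FBXW7 and BTRC. In that list 1 gene of 10 had an unadjusted p under 0.05, against 35.8% of all tested genes. With the ACTB covariate, which itself differed on average between the groups, every call named in these lists missed the threshold. The adjusted p ran from 0.0675 for BNIP3L to 0.23 for TRADD in that limma fit, and a loss there does not give a cause. The differences themselves kept their direction in that fit, for example 1.19 against 1.30 for BNIP3L, -0.46 against -0.48 for MTCH2 and 1.30 against 1.77 for BNIP3. Without the filter on dim genes, STAT3, BNIP3L and MTCH2 still passed and the other calls named in these lists did not, with adjusted p from 0.0512 for ATF4 to 0.148 for VDAC3. FOXO3 also missed after quantile normalization (adjusted p = 0.0585).

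**Figure D5:**
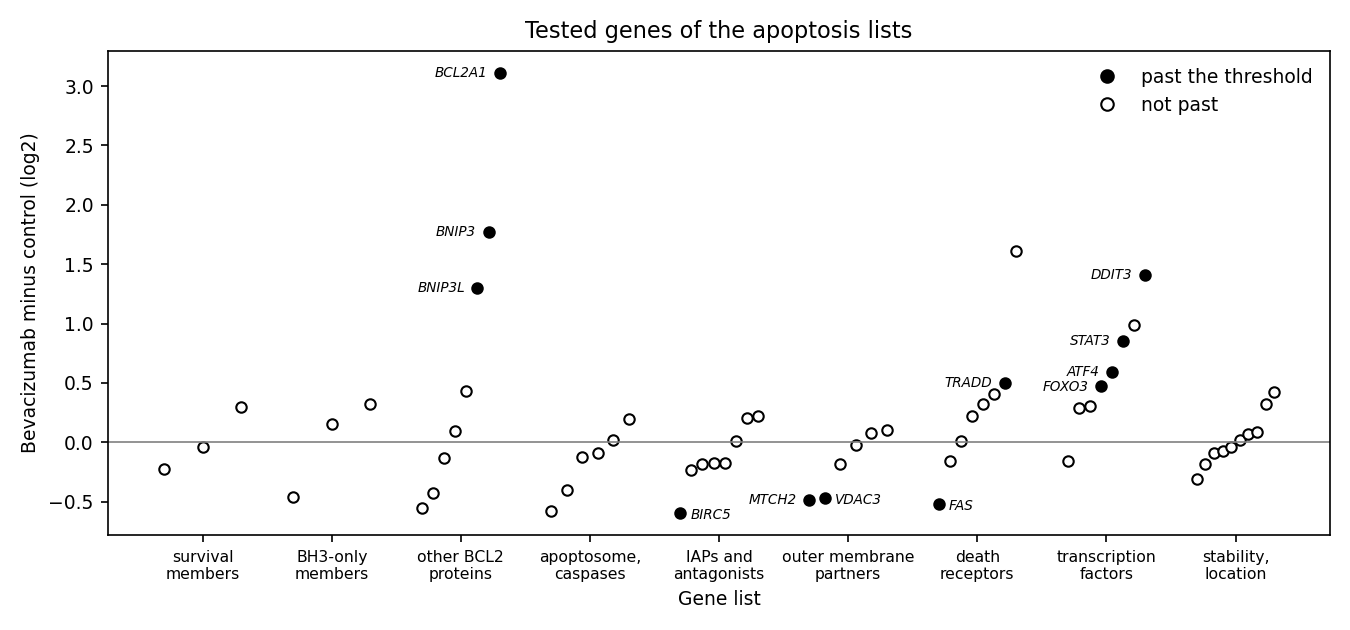
Difference of group means (bevacizumab minus control, log2) for every tested gene of the family and of 7 related lists, each circle 1 gene, filled where the adjusted p was under 0.05. Filled circles are named. No member of the survival or BH3-only groups is filled.

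MCL1 and BID, the survival and the death member with the smallest limma p, were compared with all other tested genes. The genes with patterns most like each were found by Pearson correlation over the 6 arrays, as a description. For MCL1 on its brightest probe set they were CBX7 (r = 0.975), ARL6 (0.969) and GALNT5 (0.961), and 5 genes had r above 0.95. For BID they were KLF11 (r = 0.998), ATXN1 (0.998) and APCDD1L (0.998), and 332 genes had r above 0.95. KLF11, ATXN1 and APCDD1L each passed the threshold, with rises of 1.88, 0.80 and 1.56, beside 0.32 for BID. They were picked for their likeness to BID, whose groups did not overlap, so their passing is not a separate result.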

How the data were processed

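The authors deposited log2 expression values per probe set; per the submitters' processing notes, GCOS 1.1.1.052 and GCRMA (sequence-based background correction, then normalization across arrays) were used. The log2 scale was inferred from the values. Array dates, batches and a genome build are not given in the sources used here. The values were used as deposited, and all 6 sample columns were read. Symbols were set through Entrez identifiers and RefSeq (GRCh38.p14) for the 41097 probe sets of a single gene; 1801 with several genes and 11777 not listed were left out. A gene was represented by its brightest probe set on average, and genes or probe sets with a mean of at least 4 were tested with limma 3.58.1 in R 4.3.3 (lmFit, eBayes, no covariate, two-sided, Benjamini-Hochberg). The number of arrays limits the precision. All 10 members are named, and from each related list the genes past the threshold, at most 6 by p. Members and lists were chosen with earlier results of these data known. Alternatives were leaving out each array, a replicate block, other filters, a floor at 4, the mean of probe sets, quantile normalization, a trend with robust moderation and an RNA integrity covariate. The fit was tested on simulated data with independent noise and far fewer changed genes than were called here, so that test does not vouch for these calls.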

Additional observations from a re-analysis of the deposited data

How the results depend on the processing

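No family member passed as lower in any of the 14 alternatives, and 1 (BID) passed as higher in the fit without bevacizumab 1, so the count of higher members ran from 0 to 1 when an array was left out. The count of family probe sets past the threshold, 1 as reported, ran from 0 to 2 when an array was left out, and was 0 with the replicate block, without the filter, after quantile normalization, with the trend and robust moderation, and with the ACTB covariate. The cause was not tested. No sign of pairing by replicate number was seen. Same-numbered arrays correlated at -0.05, -0.01 and -0.05 in their deviations from group means, while differently numbered arrays reached at most 0.21, 0.18 and 0.23. Deviations from a group mean sum to 0 within the group, so this check cannot exclude a pairing. With the replicate block 904 genes passed in place of 1950, and 0 family members. Of the calls in the related lists, the block ended those of MTCH2, VDAC3, BIRC5, FAS, TRADD, FOXO3 and ATF4, with adjusted p from 0.059 to 0.128.

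Differences that turned sign were all short of the threshold. With the mean of all probe sets MCL1 was -0.16 and PMAIP1 -0.14. Leaving out an array gave BCL2L1 (206665_s_at) a range from -0.15 to 0.11, PMAIP1 (204285_s_at) from -0.0699 to 0.28, MCL1 200798_x_at from -0.20 to 0.019 and 214057_at from -0.41 to 0.27, and BCL2L11 1553096_s_at from -0.0926 to 0.13. BCL2L11 1553096_s_at was -0.0029 after quantile normalization, and BCL2L1 215037_s_at was 0.0568 with the ACTB covariate. Over all genes 598 passed without the filter and 24 with the ACTB covariate. Quantile normalization moved the median of all genes by -0.04 and the share of calls that were higher from 47.7% to 44.0%. With 3 arrays a group, a miss of the threshold does not show that a member stayed level.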
